A study of Mus musculus with 35 samples.

Results

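The chemokine Ccl5 and 5 chemokine receptors, Cxcr3, Cxcr4, Ccr2, Ccr4 and Ccr9, were followed across sorted mouse CD8 T cells with and without floxed alleles of Dot1l, which encodes the enzyme that places methyl groups on histone H3 at lysine 79. These 6 genes were chosen by name, with earlier results of these data known. Each matched 1 of the 52636 genes in the count table. All 6 passed the filter on low counts, as did 10296 genes in all. The 3 groups of mice, all C57BL/6 and all carrying a single copy of a transgene labelled Lcre, had the Dot1L genotypes wt/wt (WT), fl/wt (Het) and fl/fl (KO), so that the WT controls carried the transgene too. Each genotype was sampled as CD8 SP cells of the thymus, as naive cells of the spleen (CD44-, CD62L+) and as memory cells of the spleen (CD44+, CD62L+). The 35 libraries form 9 groups of 4, except WT thymus with 3. The labels give no age and no promoter for the transgene, and do not say which part of Dot1l is floxed. They leave open whether each replicate was a mouse of its own, so part of the spread behind the p-values may be technical. By Xist and Y-linked counts every group held male and female libraries, and so more than 1 mouse.

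Chemokines are small secreted proteins that bind G protein-coupled receptors on leukocytes and steer them through tissues. Ccl5 is made in quantity by memory and effector CD8 T cells. Cxcr4 binds Cxcl12 and holds cells in the bone marrow and the thymic cortex, Ccr9 binds Ccl25 of thymus and small intestine, and Ccr4 binds Ccl17 and Ccl22, which are made in the thymic medulla and the skin. Cxcr3 binds the interferon-induced chemokines Cxcl9 and Cxcl10, and Ccr2 binds Ccl2, so both direct T cells to inflamed tissue.

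Total counts per library ran from 4809509 to 16879636, with a median of 10406516, so genes with a few counts were measured with little precision. Levels are given as CPM, the counts of a gene scaled to its library's total over genes that passed the filter, adjusted by a TMM factor. Dot1l itself, counted over the whole gene, showed no fall in the libraries labelled KO (77.3 ± 1.68 CPM (SD, n = 4) against 67.0 ± 5.20 in WT (n = 3) in the thymus), which does not check the deletion, and every direction below is that of the labels. Cd4 had at most 0.27 CPM in any library, and Lck and Cd3e had at least 792 and 177 CPM in every one. Cd8a stood at only 3.55 to 14.8 CPM and B2m at 1.30 to 9.66 CPM, for a reason not found here, so levels in this table cannot be read as transcript abundance for every gene. From Xist and Y-linked genes 24 libraries were male and 11 female. KO naive replicate 3 had the highest summed CPM of 6 memory marker genes among the naive libraries (541 CPM), and KO naive replicate 4 the highest sum of 12 B cell genes among all libraries (511 CPM). Results that rest on these libraries are given with and without them.

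Promoter windows of 300 bases, from 250 bases before to 50 bases after the start site, were found in RefSeq (GRCm38.p6) for the 5 receptors, and Ccl5 is named only. They were searched on both strands for the T-box half-site GGTGTG and the RUNX site TGTGGT, motifs of factor families that act in CD8 T cells. The motifs do not overlap each other in these windows. For Ccr9 and Ccr4 the start site used lay well inside the gene span given below, not at its 5′ end. The windows of Cxcr3 and Ccr9 are printed because they held a motif, and those of Cxcr4 and Ccr2 because these genes were higher in the KO libraries. Capitals mark a motif, the RUNX site appearing as its reverse complement, and each window runs 5′ to 3′ on the strand of the gene.
Cxcr3, chrX:101734098-101734397, minus strand: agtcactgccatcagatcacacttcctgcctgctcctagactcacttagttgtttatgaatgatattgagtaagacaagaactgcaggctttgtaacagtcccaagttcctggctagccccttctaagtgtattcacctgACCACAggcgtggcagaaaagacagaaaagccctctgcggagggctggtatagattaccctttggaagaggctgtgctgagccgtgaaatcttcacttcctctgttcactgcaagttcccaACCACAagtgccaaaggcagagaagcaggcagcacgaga
Ccr9, chr9:123766961-123767260, plus strand: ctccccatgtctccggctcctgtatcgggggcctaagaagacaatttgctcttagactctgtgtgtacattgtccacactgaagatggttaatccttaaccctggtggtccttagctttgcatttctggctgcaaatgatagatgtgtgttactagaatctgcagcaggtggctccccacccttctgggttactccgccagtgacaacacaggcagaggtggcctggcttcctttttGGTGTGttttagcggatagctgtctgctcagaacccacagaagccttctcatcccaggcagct
Cxcr4, chr1:128592250-128592549, minus strand: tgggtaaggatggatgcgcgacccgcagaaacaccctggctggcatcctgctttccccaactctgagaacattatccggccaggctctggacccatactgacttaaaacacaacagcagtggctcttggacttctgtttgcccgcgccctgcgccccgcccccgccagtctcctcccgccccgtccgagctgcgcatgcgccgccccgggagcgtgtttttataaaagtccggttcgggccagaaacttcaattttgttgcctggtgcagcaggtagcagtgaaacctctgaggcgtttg
Ccr2, chr9:124101933-124102232, plus strand: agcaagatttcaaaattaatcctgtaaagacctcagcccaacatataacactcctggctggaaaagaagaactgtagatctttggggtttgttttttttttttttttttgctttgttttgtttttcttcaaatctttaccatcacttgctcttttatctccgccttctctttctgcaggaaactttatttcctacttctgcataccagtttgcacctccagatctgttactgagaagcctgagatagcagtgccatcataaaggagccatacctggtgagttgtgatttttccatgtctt
Cxcr3 held the RUNX letters at positions -110 and 12 from its start site, both in the reverse orientation, and Ccr9 held the T-box letters at position -13. Neither motif was found in the windows of Cxcr4, Ccr2 or Ccr4. Of 32851 promoter windows of the same length, 19.05% held the T-box letters and 16.76% the RUNX letters, so 1 or 2 of these 5 windows with a match is no unusual share.

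The genes had different levels and different orders over the 9 groups. Levels were scaled to the length covered by all annotated exons of a gene. The highest group mean was then that of Ccl5 in KO memory cells, at 986 CPM per kb. In the same libraries Cxcr4 stood at 96.7, Cxcr3 at 4.02, Ccr2 at 2.91, Ccr9 at 0.17 and Ccr4 at 0.05. In WT thymus the order was another: Cxcr4 stood at 22.4 CPM per kb, Ccr9 at 13.7, Ccl5 at 3.43, Ccr4 at 0.68, and Cxcr3 and Ccr2 at 0.01 each. These orders depend on the exon length, which was 10.26 kb for Ccr9, 6.76 for Ccr2, 1.808 for Cxcr4 and 1.731 for Cxcr3. Before this scaling Ccr9 stood above Cxcr4 in WT thymus, at 140.9 against 40.4 CPM. Ccr2 then stood above Cxcr3 in KO memory cells, at 19.7 against 6.95 CPM. Ccr9 and Ccr4 had their highest group means in the thymus, and Ccl5, Cxcr3, Cxcr4 and Ccr2 had their highest group means in memory cells.

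**Figure D1:**
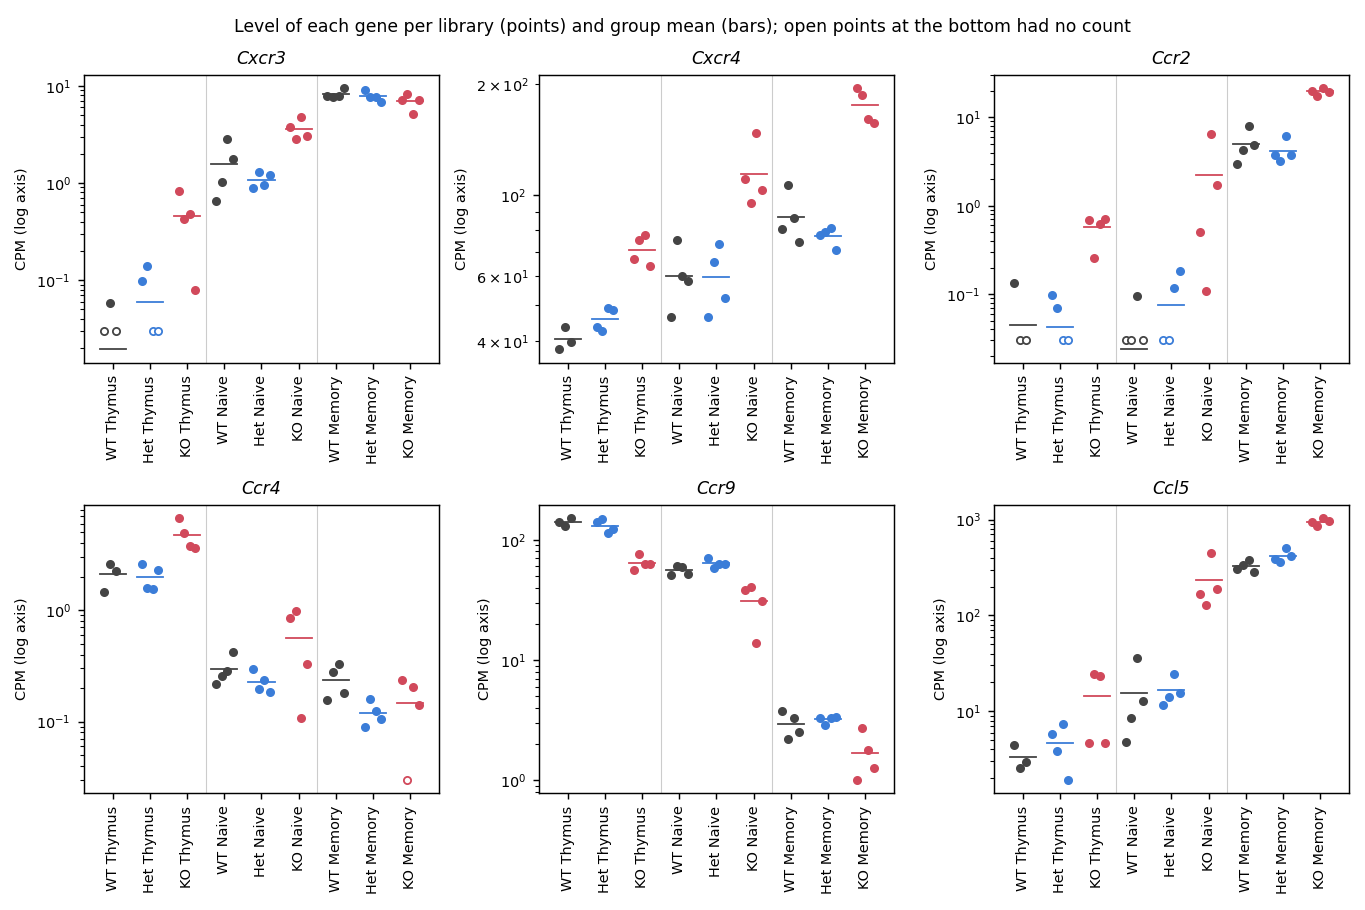
Level of each of the 6 genes in CPM (log axis) for every library, grouped by genotype and subset, with group means as bars and open points for libraries with no count. Ccl5 rises from 2.56 CPM in a WT thymus library to 1039 in a KO memory library, while Ccr9 falls from 152 CPM in a WT thymus library to 1.01 in a KO memory library.

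Ccl5 (ENSMUSG00000035042, chr11:83525778-83530518, minus strand, GRCm38) is the only ligand of the set. In the thymus it stood at 4.39, 2.56 and 2.93 CPM in the WT libraries, at 5.75, 3.82, 7.38 and 1.93 in Het and at 4.68, 24.5, 23.4 and 4.62 in KO. Of the KO libraries, 2 lay near the WT and Het values and 2 well above them, with no overlap between KO and WT but overlap between KO and Het. In naive cells it stood at 4.76, 8.43, 35.8 and 12.8 CPM in WT, at 11.6, 14.2, 24.5 and 15.7 in Het, and at 168, 127, 452 and 189.6 in KO. Every KO naive library was above every WT and Het one, and replicate 3 was the highest in WT, in Het and in KO. In bulk RNA such as this, fewer cells of a type and less RNA per cell cannot be told apart. In memory cells it stood at 305, 337, 378 and 280.2 CPM in WT, at 390.3, 359, 505 and 421 in Het, and at 932, 851, 1039 and 964 in KO. The KO memory libraries lay within a narrow range above all others of the series. Replicate 3 was the highest in each memory group too, and in all spleen groups it was female by its Xist and Y-linked counts. The 6 calls of KO against WT or Het for Ccl5 were kept with sex as a covariate.

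The order of group means for Ccl5 was KO memory, Het memory, WT memory, KO naive, Het naive, WT naive, KO thymus, Het thymus and WT thymus. Het and WT memory, WT memory and KO naive, and all neighbours from Het naive downward overlapped in their libraries, whereas KO memory and Het memory, and KO naive and Het naive, did not. KO naive libraries, at 234 ± 147 CPM (SD, n = 4), thus came up to the level of WT memory libraries, at 325 ± 42.5, through replicate 3 alone.

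Fitted against WT with edgeR's quasi-likelihood test, called at an adjusted p under 0.05, Ccl5 was higher in KO libraries in all 3 subsets. The log2 fold change was 2.25 ± 0.69 (SE) in thymus (adjusted p = 0.0218), 3.81 ± 0.49 in naive cells (adjusted p = 1.1e-06) and 1.54 ± 0.41 in memory cells (adjusted p = 0.0060). Against Het, which shares the same KO libraries, it was 1.69 ± 0.58, 3.84 ± 0.48 and 1.18 ± 0.40 (adjusted p of edgeR 0.043, 8.5e-07 and 0.0387). The thymus call was lost when only thymus KO and WT libraries were fitted (adjusted p = 0.167) and in 4 of 7 fits that left out a library, with an adjusted p up to 0.109 without WT replicate 2. In naive cells it was 3.27 without KO replicate 3 and 4.66 without WT replicate 3, and called in both. Without KO naive replicates 3 and 4 it was 3.14 against WT and 3.18 against Het, both called. The call against Het was lost in 7 of 8 such fits in memory cells (adjusted p up to 0.0935) and in 5 of 8 in thymus (up to 0.167). In memory cells it was lost in DESeq2 (adjusted p = 0.0901), without a filter (0.0654) and with centring on the mean log level (0.0509) too, and in thymus with only the compared libraries (0.234) and without a filter (0.0793).

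Cxcr4 (ENSMUSG00000045382, chr1:128588199-128592293, minus strand), the receptor of Cxcl12, showed the steadiest difference. In the thymus it stood at 37.9, 43.6 and 39.8 CPM in WT, at 43.8, 42.5, 49.2 and 48.6 in Het and at 66.8, 75.4, 77.7 and 63.9 in KO. In naive cells it stood at 46.6, 75.4, 60.0 and 58.4 CPM in WT, at 46.6, 65.8, 73.6 and 52.5 in Het and at 110.4, 94.8, 148 and 103 in KO. In memory cells it stood at 80.8, 106, 86.3 and 74.3 CPM in WT, at 77.8, 79.4, 81.0 and 70.9 in Het and at 195, 187, 160.4 and 157 in KO. In each subset all KO libraries lay above all WT and all Het ones. The log2 fold change from WT to KO was 0.81 ± 0.15 in the thymus, 0.91 ± 0.14 for naive and 1.01 ± 0.13 for memory cells, with an adjusted p of 0.00020, 7.4e-06 and 5.6e-07 (edgeR). Against Het it was 0.63 ± 0.14, 0.94 ± 0.14 and 1.18 ± 0.14, all called. The naive values were 0.76 and 0.79 without KO naive replicates 3 and 4. None of these 6 calls was lost in any alternative or with any library left out.

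Cxcr4 spanned the smallest range of the 6 genes, its highest group mean being 4.33 times its lowest. After KO memory, which overlapped no other group, came KO naive, WT memory, Het memory, KO thymus, WT naive, Het naive, Het thymus and WT thymus, and each of these overlapped its neighbour. The KO difference was of like size in the 3 subsets: the test of a difference in effect gave an adjusted p of 0.846 for naive cells less thymus and 0.971 for memory less naive cells (edgeR), which does not show that the effects were equal.

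Ccr2 (ENSMUSG00000049103, chr9:124101950-124113557, plus strand), the receptor of Ccl2, was close to the limit of detection outside memory cells. The WT thymus libraries held 1 count in all and the Het ones 2, against 26 in KO, where the libraries stood at 0.69, 0.26, 0.62 and 0.72 CPM. In naive cells WT held 1 count and Het 3, against 89 in KO, of which 61 were in replicate 3, and the KO libraries stood at 0.51, 0.11, 6.56 and 1.74 CPM. In memory cells Ccr2 stood at 2.95, 4.25, 7.90 and 4.84 CPM in WT, at 3.73, 3.20, 6.16 and 3.76 in Het and at 19.98, 17.6, 21.7 and 19.5 in KO. The memory groups were the well measured ones, and there the KO libraries did not overlap the others.

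In memory cells the log2 fold change of Ccr2 was 2.0 ± 0.41 against WT (adjusted p = 0.00047) and 2.22 ± 0.43 against Het (adjusted p = 0.00024), called under every alternative tried. In naive cells the counts pooled over libraries gave a KO to WT ratio of 68.4 with a counting interval of 12.0 to 2733, and a KO to Het ratio of 27.7 (9.19 to 137). These intervals, exact at 95%, cover counting error only and not the spread between libraries. The naive call (log2 fold change 5.68 ± 1.21, adjusted p = 0.00094) was lost when only these KO and WT libraries were fitted (adjusted p = 0.0999) and without KO naive replicates 3 and 4 (3.01, adjusted p = 0.0903), and the value was 4.32 without KO replicate 3 and 7.53 without WT replicate 3. The call against Het (4.63 ± 0.98, adjusted p = 0.00097) was lost in fits of the same kinds, at 4.64 (adjusted p = 0.110) and at 1.97 (adjusted p = 0.217). In thymus the pooled ratio was 20.5 (3.37 to 840) against WT and 13.0 (3.26 to 113) against Het, neither called by edgeR (adjusted p = 0.0869 and 0.0733). The thymus difference from WT passed with the replicate number as a block (adjusted p = 0.037), with a sex covariate (0.0277), with only the compared libraries (0.00585) and in DESeq2 (0.018). That from Het passed in the same settings (adjusted p = 0.0322, 0.034, 0.00614 and 0.0159) and without robust estimates (0.0459).

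Cxcr3 (ENSMUSG00000050232, chrX:101731535-101734269, minus strand), the receptor of Cxcl9 and Cxcl10, rose from thymus to naive to memory cells. In naive cells it stood at 0.65, 1.02, 2.84 and 1.78 CPM in WT, at 0.88, 1.29, 0.95 and 1.2 in Het and at 3.8, 2.85, 4.73 and 3.07 in KO. The KO naive libraries lay above the WT and Het ones, by a margin of under 0.01 CPM between the lowest KO and the highest WT library. In memory cells it stood at 7.92, 7.76, 7.90 and 9.59 CPM in WT, at 8.98, 7.68, 7.64 and 6.79 in Het and at 7.08, 8.34, 5.19 and 7.19 in KO. The memory groups overlapped one another. The thymus libraries held 1 count in WT, 3 in Het and 19 in KO, where they stood at 0.83, 0.43, 0.48 and 0.08 CPM.

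In naive cells the log2 fold change of Cxcr3 was 1.06 ± 0.29 against WT (adjusted p = 0.0069) and 1.72 ± 0.30 against Het (adjusted p = 3.7e-05). The call against WT was lost without KO naive replicates 3 and 4 (0.96, adjusted p = 0.0638), and that against Het was kept (1.62). In memory cells it was -0.26 ± 0.23 against WT (adjusted p = 0.483) and -0.17 ± 0.23 against Het (adjusted p = 0.686). In the thymus the pooled ratio was 14.97 (2.38 to 622) against WT and 6.35 (1.87 to 33.5) against Het. Both thymus differences were called (adjusted p = 0.0041 and 0.0095 in edgeR), and the second was lost with only the compared libraries (adjusted p = 0.0639). The effect in memory less that in naive cells was -1.33 ± 0.37, called at an adjusted p of 0.0496, a call that was lost in 12 of 16 fits that left out a library (adjusted p up to 0.176 without WT naive replicate 2), in 2 other alternatives and without KO naive replicates 3 and 4 (adjusted p = 0.183).

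Ccr4 (ENSMUSG00000047898, chr9:114490316-114504916, minus strand), the receptor of Ccl17 and Ccl22, was measurable mainly in the thymus. There it stood at 1.46, 2.62 and 2.24 CPM in WT, at 2.58, 1.60, 1.55 and 2.28 in Het and at 6.75, 4.95, 3.78 and 3.59 in KO. The KO thymus libraries lay above all others. The log2 fold change was 1.11 ± 0.32 against WT (adjusted p = 0.0104) and 1.23 ± 0.29 against Het (adjusted p = 0.0019). The first call was lost in 2 of 7 fits that left out a library (adjusted p up to 0.0724, without WT replicate 1).

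In naive cells Ccr4 stood at 0.22 to 0.42 CPM in WT, at 0.18 to 0.29 in Het and at 0.84, 0.99, 0.11 and 0.33 in KO. The difference was not called against WT (0.87 ± 0.53, adjusted p = 0.305) or Het (1.27 ± 0.54, adjusted p = 0.105). The 2 KO naive libraries with the low values are replicates 3 and 4, and without both the difference was called against WT (1.54, adjusted p = 0.0459) and Het (1.94, adjusted p = 0.0103). Against Het it was called without KO naive replicate 3 alone too (1.58, adjusted p = 0.0302). In memory cells WT held 10 counts in all, Het 4 and KO 8, and no difference was detectable at this depth (adjusted p = 0.701 against WT and 0.763 against Het).

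Ccr9 (ENSMUSG00000029530, chr9:123678439-123784330, plus strand), the receptor of Ccl25, went the other way. In the thymus it stood at 139, 131 and 152 CPM in WT, at 140.3, 149, 113 and 122 in Het and at 56.0, 75.5, 62.8 and 62.6 in KO. In naive cells it stood at 50.7, 60.7, 59.6 and 51.8 CPM in WT, at 71.1, 58.6, 63.1 and 63.0 in Het and at 38.3, 40.3, 13.9 and 31.0 in KO. In memory cells it stood at 3.81, 2.22, 3.29 and 2.51 CPM in WT, at 3.29, 2.88, 3.33 and 3.34 in Het and at 1.01, 2.72, 1.78 and 1.27 in KO. KO libraries were below WT and Het without overlap in thymus and naive cells, and in memory cells they were below Het but overlapped WT.

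The log2 fold change of Ccr9 in KO relative to WT was -1.13 ± 0.19 in thymus (adjusted p = 5.6e-05), -0.85 ± 0.19 in naive cells (adjusted p = 0.0014) and -0.84 ± 0.35 in memory cells (adjusted p = 0.0961). Against Het it was -1.03 ± 0.18, -1.05 ± 0.19 and -0.96 ± 0.36, with an adjusted p of 8.9e-05, 0.00012 and 0.0626 (edgeR). The naive calls were lost when only the libraries compared were fitted (adjusted p = 0.133 against WT and 0.0685 against Het). Without KO naive replicates 3 and 4 the naive values were -0.51 (adjusted p = 0.0115) and -0.70 (adjusted p = 0.00042), smaller in size but called by edgeR. The memory difference from WT was called when libraries were centred on their mean log level (adjusted p = 0.0444), in DESeq2 (0.025) and without KO memory replicate 2 (0.0333). That from Het was called without robust estimates (0.0387), with centring (0.0263), with only the compared libraries (0.0307), in DESeq2 (0.0096) and without KO memory replicate 2 (0.0214). The effect did not differ detectably between subsets (adjusted p = 0.646 for naive cells less thymus and 1 for memory less naive cells). The exons of Ccr9 overlap those of Gm17200 on its own strand and of Slc6a20a and AC165425.1 on the other, and 19.6% of its 65-base windows occur in another gene, so its counts may be shared with or lost to these genes. Ccr2 shared 1.36% of its windows with other genes, Ccr4 shared 0.399%, and Ccl5, Cxcr3 and Cxcr4 shared none.

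**Figure D2:**
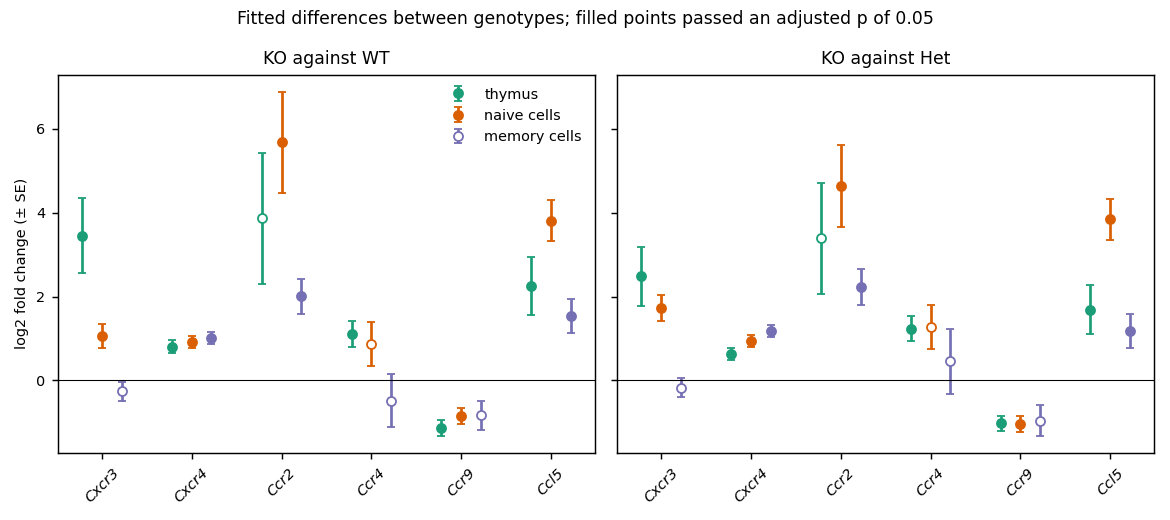
Log2 fold changes ± SE of the 6 genes from edgeR in KO against WT libraries (left) and KO against Het libraries (right), coloured by subset, with filled points where the adjusted p was under 0.05. Cxcr4, Ccr2 and Ccl5 lie above 0 in all subsets and Ccr9 below 0, while Cxcr3 is above 0 in thymus and naive cells and at -0.26 in memory cells against WT.

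Counted together, 5 of the 6 genes passed the test between KO and WT libraries in thymus (4 higher, 1 lower), where 18.6% of all tested genes did. In naive cells it was 5 of 6 (4 higher, 1 lower) beside 18.2% of all genes, and in memory cells 3 of 6 (all higher) beside 22.2%. Against Het the counts were the same, 5, 5 and 3, beside 19.1%, 16.9% and 20.2%. In both naive comparisons only 3 of the 6 passed when the other libraries were left out of the fit. The median log2 fold change of the 6 against WT was 1.68, 0.99 and 0.37, and that of all tested genes 0.02, 0.00 and 0.01. Since the 6 genes were chosen with earlier results of these data known, these counts and medians are no test of the set. Centring the libraries on the mean log level in place of TMM scaling moved the median gene by -0.10 in thymus and -0.12 in naive and in memory cells. It turned the split of all calls from 1222 higher and 697 lower to 886 and 1327 in thymus, from 1147 and 732 to 876 and 1663 in naive cells, and from 1323 and 960 to 1013 and 1865 in memory cells. Every called fold change named here was larger than that shift, and none of the 6 genes changed direction under it.

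No gene of the 6 was called between Het and WT libraries in edgeR or in DESeq2, and none had an unadjusted p under 0.05. The lowest adjusted p was 0.885 in thymus and 1 in naive and memory cells (edgeR), where 0%, 0% and 0.00971% of all tested genes passed. At an unadjusted p under 0.05 stood 636, 275 and 527 of all genes, and DESeq2 called 0, 0 and 2.

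Memory cells differed from naive cells in all 3 genotypes. In WT 5 of the 6 genes passed (4 higher, 1 lower) beside 15.1% of all genes, in Het 4 (3 higher, 1 lower) beside 16.9%, and in KO 6 (4 higher, 2 lower) beside 17.3%. Ccl5 was higher in memory cells by a log2 fold change of 4.28 ± 0.49 in WT, 4.68 ± 0.49 in Het and 2.02 ± 0.41 in KO. Cxcr3 was higher by 2.27 ± 0.27, 2.83 ± 0.29 and 0.94 ± 0.24. Both values were smaller in KO, where the naive level was higher, and there they were 2.68 and 1.04 without KO naive replicates 3 and 4. The effect of KO in memory less naive cells, which tests this difference, was -2.27 ± 0.62 for Ccl5 and not called (adjusted p = 0.0571), beside 1 of 6 genes called, Cxcr3, and 1.79% of all genes. The Ccl5 value passed with the replicate number as a block (adjusted p = 0.0092), with a sex covariate (0.0137), without robust estimates (0.015) and in DESeq2 (0.0481), and not in the other 6. With 1 library left out it passed in 2 of 16 fits and ran from -3.12 without WT naive replicate 3 to -1.73 without KO naive replicate 3 (adjusted p up to 0.171), and it was -1.60 without KO naive replicates 3 and 4 (adjusted p = 0.325).

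Ccr9 was lower in memory than in naive cells by nearly the same amount in each genotype, -4.23 ± 0.24 in WT, -4.30 ± 0.25 in Het and -4.21 ± 0.27 in KO, or -4.56 there without KO naive replicates 3 and 4. Ccr2 was higher in memory cells, with pooled ratios of 156 (27.6 to 6171) in WT and 55.5 (18.6 to 272) in Het, and a log2 fold change of 3.18 ± 0.45 in KO, or 4.55 without KO naive replicate 3 and 5.85 without replicates 3 and 4. Cxcr4 was higher by 0.52 ± 0.14 in WT (adjusted p = 0.0074, lost with only the compared libraries at 0.0509), 0.38 ± 0.14 in Het (adjusted p = 0.0591) and 0.62 ± 0.13 in KO (adjusted p = 0.00085). The Het value passed in 5 of 9 alternatives other than leaving out a library. In edgeR these were no robust estimates (adjusted p = 0.0479), the replicate number as a block (0.0194) and a sex covariate (0.0101). It passed with only the compared libraries (0.0341) and in DESeq2 (0.0278) too. Ccr4 was called lower in KO memory cells only (-1.75 ± 0.54, adjusted p = 0.0193), a call lost with only the compared libraries (adjusted p = 0.114) and in 3 of 8 fits that left out a library, and -2.42 without KO naive replicates 3 and 4. In WT and Het its difference was -0.40 ± 0.62 and -0.93 ± 0.76 (adjusted p = 0.757 and 0.474), and whether the genotypes differ in it was tested for WT and KO alone (adjusted p = 0.719).

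**Figure D3:**
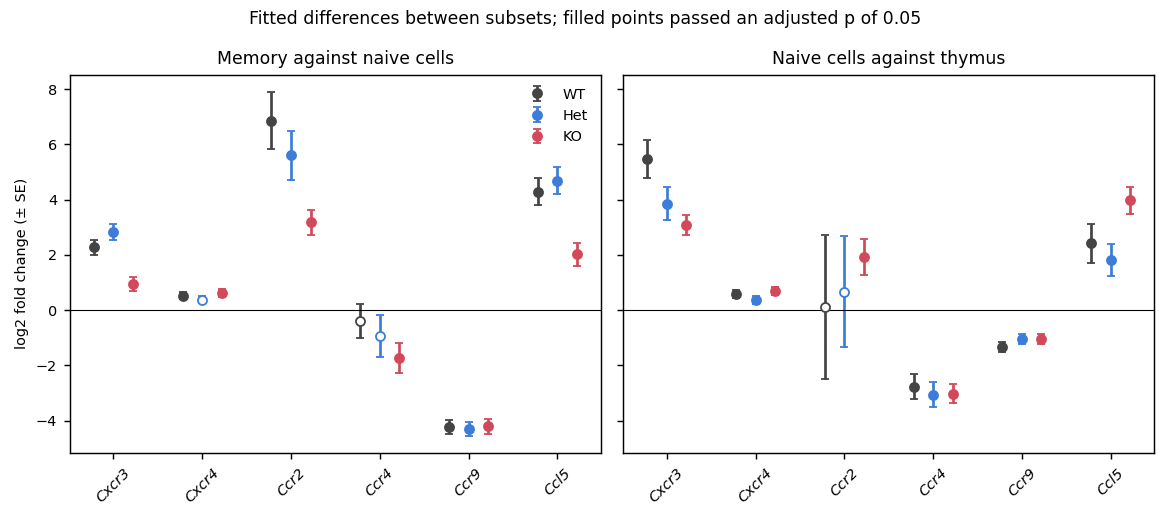
Log2 fold changes ± SE of the 6 genes from edgeR in memory against naive cells (left) and naive cells against thymus (right), coloured by genotype, with filled points where the adjusted p was under 0.05. Ccr9 is lower at both steps in every genotype, and Ccl5 in KO libraries has its larger difference between thymus and naive cells (3.97) and its smaller between naive and memory cells (2.02).

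Between thymus and naive cells 5 of the 6 genes passed in WT (3 higher, 2 lower), 5 in Het (3 higher, 2 lower) and 6 in KO (4 higher, 2 lower), beside 32.2%, 39.5% and 44.1% of all genes. Ccr4 was lower in naive cells by 2.78 ± 0.46 to 3.06 ± 0.44 on the log2 scale, with KO at 3.02 ± 0.35 and Het at the upper end. Ccr9 differed by -1.33 ± 0.19 in WT, -1.04 ± 0.18 in Het and -1.06 ± 0.19 in KO. Cxcr3 was higher in naive cells, with pooled ratios of 64.7 (11.2 to 2598) in WT and 16.7 (5.35 to 84.3) in Het and a log2 fold change of 3.08 ± 0.35 in KO. Cxcr4 was higher by 0.58 ± 0.15 in WT, 0.37 ± 0.14 in Het and 0.68 ± 0.14 in KO, the Het call being lost in 4 of 8 fits that left out a library, with 0.25 without Het naive replicate 3.

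Ccl5 was higher in naive cells than in the thymus by 2.42 ± 0.70 in WT, 1.82 ± 0.59 in Het and 3.97 ± 0.48 in KO. The WT value fell to 1.57 without WT naive replicate 3 and was then not called (adjusted p = 0.107). The WT call was lost with only the compared libraries too (adjusted p = 0.0873). The Het call was lost in 2 of 8 fits that left out a library (adjusted p up to 0.0571). Without KO naive replicates 3 and 4 the KO values were 3.31 for Ccl5, -0.71 for Ccr9, 2.97 for Cxcr3, 0.53 for Cxcr4 and -2.35 for Ccr4, all called. Ccr2 was called in KO alone (1.91 ± 0.65, adjusted p = 0.0174), where replicate 3 of the naive group decided it: the value was 0.55 without that library (adjusted p = 0.433) and -0.75 without replicates 3 and 4 (adjusted p = 0.408). In WT and Het, 1 to 3 counts a group left no difference detectable at this depth. The effect of KO in naive cells less thymus was called in 0 of the 6 genes (adjusted p from 0.154 to 0.947 in edgeR, with 1, Cxcr3, at an unadjusted p of 0.0194), and in 0 by DESeq2, beside 6.34% of all genes, and in Ccr9 alone without KO naive replicates 3 and 4 (0.62, adjusted p = 0.0363).

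Memory markers moved with these results. The summed CPM of 6 such genes (Cd44, Il2rb, Eomes, Tbx21, Itga4 and Ly6c2) was 187 to 215 in WT naive, 416 to 541 in KO naive, 416 to 484 in WT memory and 629 to 695 in KO memory libraries. In the thymus it was 75.5 to 91.8 in WT and 189 to 228 in KO. All 6 were tested, and 4 were called higher in KO thymus, 5 in KO naive and 3 in KO memory cells against WT, none lower, beside 18.6%, 18.2% and 22.2% of all tested genes. Cd44, on whose protein the spleen cells were sorted, stood at 5.49, 5.91, 18.0 and 6.30 CPM in KO naive and at 1.53 to 4.26 in WT naive libraries, against 25.0 to 31.4 in WT memory. KO naive replicate 3, the highest of its group in Cd44, was the highest in Ccl5, Ccr2, Cxcr3 and Cxcr4 too. It was the lowest in Ccr9 and Ccr4. The part of memory-like cells in the results was not tested.

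**Figure D4:**
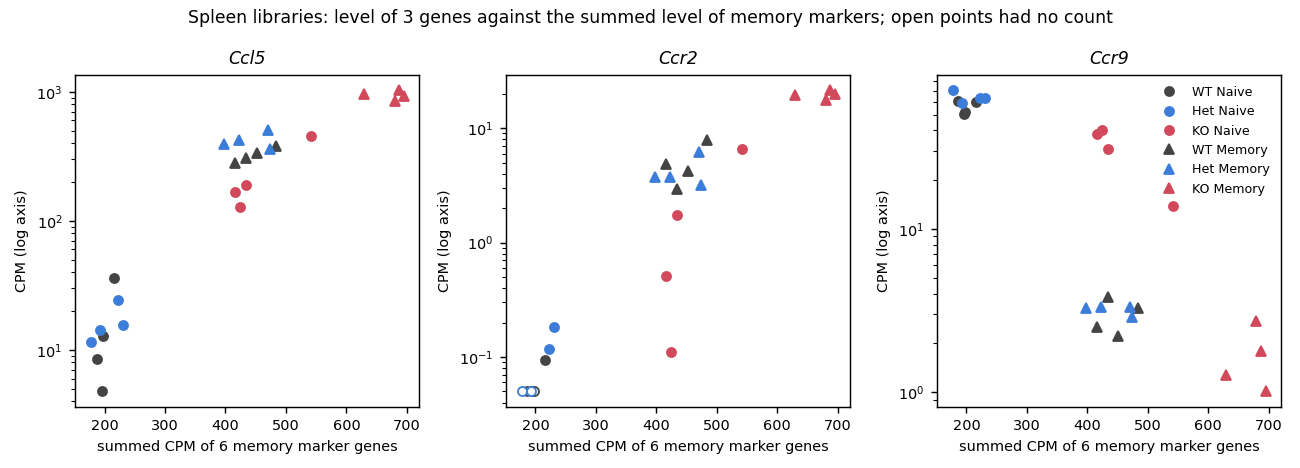
CPM (log axis) of Ccl5, Ccr2 and Ccr9 in each spleen library against the summed CPM of 6 memory marker genes, circles for naive and triangles for memory cells, with open points for libraries with no count. The KO naive libraries (416 to 541 on the horizontal axis) lie beside WT memory libraries in the marker sum, but 3 of the 4 stay below them in Ccl5, and all stay far above them in Ccr9 (13.9 to 40.3 against 2.22 to 3.81 CPM).

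Markers of other cell types gave a mixed picture. The 6 NK cell genes summed to at most 0.80 CPM in any library, with Ncr1 at 0 in all of them. The 8 monocyte and macrophage genes, cells that express Ccr2 strongly, summed to 1.29 to 11.4 CPM in KO naive, with Cd14 and Itgam at 0, to 1.41 to 3.87 in WT naive and to 1.09 to 3.94 in KO memory libraries. The highest of these was KO naive replicate 4, where Ccr2 stood at 1.74 CPM. That was below 6.56 CPM in replicate 3 and above 0.51 and 0.11 in replicates 1 and 2. The 12 B cell genes summed to 191 to 511 CPM in KO naive and 200.1 to 348 in WT naive libraries, with none of 10 tested genes called between these groups. In memory cells they summed to 106 to 177 CPM in KO, below 199 to 396 in WT and overlapping 155 to 294 in Het, and 1 of the 10 was called lower against WT. In the thymus the sum was 99.7 to 141 CPM in KO and 82.5 to 102 in WT, with 1 called higher. The sum of 6 CD4 and regulatory T cell genes did follow the genotype in the spleen, at 298 to 419 CPM in KO naive and 44.6 to 111 in WT naive libraries, with 2 of 3 tested genes called and Cd40lg at 0 in both groups. Nearly all of it was Ikzf2 (295 to 417 CPM in KO naive), whereas Foxp3, which defines regulatory T cells, stood at 0 to 0.68 CPM there. The sum of 5 gamma delta and innate-like T cell genes was 5.48 to 12.9 CPM in KO naive and 0.22 to 4.26 in WT naive libraries, with 1 of 3 tested genes called and Trdc and Il23r at 0. That of 6 dendritic cell genes was 4.16 to 8.17 CPM in KO naive and 1.41 to 3.79 in WT naive libraries, with 1 of 2 tested genes called higher. It was higher in memory cells, at 15.7 to 27.0 CPM in WT and 10.9 to 23.0 in KO. In the thymus it was 2.82 to 3.99 CPM in KO and 0.93 to 2.13 in WT, with both tested genes called higher. The sum of 6 thymocyte genes was lower in KO thymus, as Ccr9 was, at 256 to 293 CPM against 376 to 430 in WT, with 2 of 4 tested genes called lower and 1 higher. The sum of 6 naive T cell genes, Ccr7 among them, was lower in KO in each subset, at 3006 to 3216 against 4696 to 5205 CPM in WT thymus, 3460 to 3722 against 4079 to 4653 in naive and 2769 to 3063 against 3458 to 3871 in memory cells. Of these 6 genes, 3 were called lower in each subset, and 1 higher in naive cells. The part of these lists in the results was not tested.

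Among 18 other chemokine receptors, 5 had enough counts to be tested, and 3 had no count in any library. Of these 5, 2 were called higher and 1 lower in KO than in WT thymus libraries, and 1 higher and 2 lower in naive and in memory cells, beside 18.6%, 18.2% and 22.2% of all tested genes. Their median log2 fold change was 0.61, 0.36 and -0.34. Ccr7, which guides naive cells into lymph nodes, was lower in all 3 subsets (log2 fold change -0.35 ± 0.10, -0.58 ± 0.09 and -0.57 ± 0.09). Cxcr6, the receptor of Cxcl16, was higher in KO thymus (0.61 ± 0.17) and lower in KO naive cells (-0.69 ± 0.16). Cxcr5, a receptor for B cell follicles, fell below the level set for naming but was called lower in memory cells, where it was 1.17 ± 0.07 CPM (SD, n = 4) in KO and 4.49 ± 0.41 in WT (-1.94 ± 0.28), and it was named after its values were seen. Of 35 other chemokines, only Ccl27a had enough counts to be tested, it was not called in any subset, and 23 had no count in any library.

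**Figure D5:**
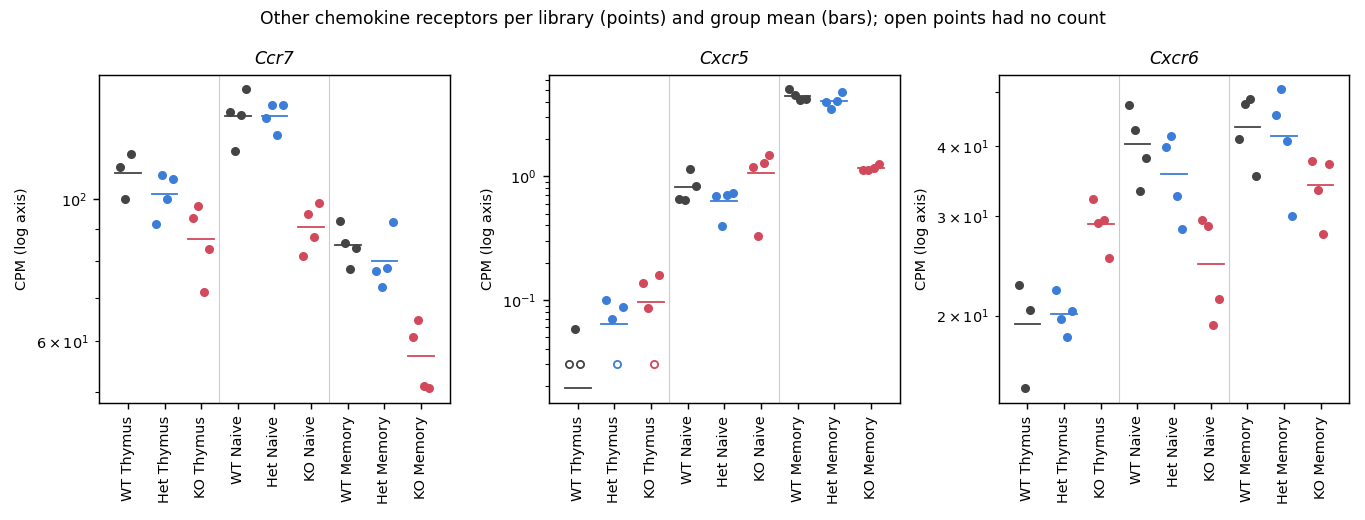
CPM (log axis) of 3 other chemokine receptors in every library, with group means as bars and open points for libraries with no count. Ccr7 is lower in KO than in WT libraries on average in each subset, and Cxcr5 stands at a mean of 1.17 CPM in KO and 4.49 CPM in WT memory cells.

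Downstream of the receptors, 34 of 36 signalling genes were tested, of which 3 were higher and 3 lower in KO than in WT thymus libraries, 9 and 5 in naive and 6 and 7 in memory cells, beside 18.6%, 18.2% and 22.2% of all tested genes, with medians of -0.01, -0.02 and 0.01 on the log2 scale. Rgs2, a regulator that shortens G protein signalling, was higher in all 3 (0.65 ± 0.22, 1.58 ± 0.22 and 1.67 ± 0.20), and Gnaq, a G protein subunit, in naive (0.80 ± 0.19) and memory cells (1.71 ± 0.20). The phospholipase gene Plcb3 was higher in thymus (1.12 ± 0.21), and the kinase gene Ptk2b (-0.35 ± 0.06) and Rgs14 (-0.36 ± 0.09) were lower. Lower in naive cells were Coro1a and Rassf5 (-0.25 ± 0.07 and -0.24 ± 0.07), and in memory cells Gng2 (-0.65 ± 0.17) and the receptor kinase gene Grk6 (-0.36 ± 0.05).

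Of 14 homing and egress genes, 13 were tested, with 4 higher and 1 lower in KO thymus, 4 and 0 in naive and 5 and 1 in memory cells, beside the same 18.6%, 18.2% and 22.2%, and medians of 0.22, 0.05 and 0.14. The integrin gene Itgb1 was higher in all 3 (0.73 ± 0.24, 1.87 ± 0.22 and 1.37 ± 0.21). Itga4, its partner in the integrin VLA-4, was among the highest in thymus (1.12 ± 0.17) and memory cells (0.78 ± 0.16). In naive cells Cd44 was (1.61 ± 0.30). Itgal was lower in thymus (-0.28 ± 0.10), and Itgae, which encodes the CD103 integrin chain, was lower in memory cells (-1.53 ± 0.24).

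Of 19 regulators of trafficking genes, all tested, 7 were higher and 5 lower in KO thymus, 10 and 2 in naive and 6 and 3 in memory cells, again beside 18.6%, 18.2% and 22.2%, with medians of 0.12, 0.33 and 0.14. Bhlhe40, a transcription factor gene of effector cells, was higher in all 3 (2.42 ± 0.23, 4.72 ± 0.31 and 3.78 ± 0.21). Tbx21, whose product T-bet is known to activate Cxcr3, was higher in thymus (2.85 ± 0.40), and Zeb2 in naive (2.86 ± 0.44) and memory cells (3.37 ± 0.37). Stat5b was lower in all 3 (-0.77 ± 0.08, -0.63 ± 0.08 and -0.71 ± 0.08), Runx1 in thymus (-0.63 ± 0.14), Lef1 in naive (-0.72 ± 0.07) and Id3 in memory cells (-1.0 ± 0.20).

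Genes whose centred group means of log2 CPM over the 9 groups came nearest to each member were found by the root mean square difference. For Ccl5 they were Arl4d (0.46) and Samd3 (0.59), for Cxcr4 Otub2 (0.14) and Dip2a (0.17), and for Ccr9 Gpr83 (0.31) and Itgae (0.47), on the log2 scale. For Cxcr3 they were Il18rap (0.42) and H2-Q10 (0.43), for Ccr2 Itga2 (0.49) and Fasl (0.58), and for Ccr4 the second was Drp2 (0.32). With a prior count of 0.5 in place of 2 both genes stayed for Ccl5 and Ccr9, 1 of 2 for Cxcr3, Cxcr4 and Ccr2, and 0 of 2 for Ccr4.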

How the data were processed

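RNA of sorted CD8 T cells was sequenced. Per the labels' protocols, strand-specific mRNA libraries (TruSeq) were sequenced from 1 end for 65 bases (HiSeq2500). TopHat2 2.1.0, TopHat, HTSeq 0.9.1, GRCm38 and mm10 are named per the submitters' processing notes. Which annotation was counted, and with which strand setting, is not given in the sources used here, and overlapping genes may share reads. The values the authors deposited are raw counts per Ensembl gene in 1 table. Of its identifiers 52403 were matched to a symbol (GRCm38), and 19776 genes had at least 1 count.

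Libraries were grouped by the labels. Genes were kept by filterByExpr over 9 groups (10296 genes), scaled by TMM (factors 0.927 to 1.07) and fitted with edgeR 4.0.16 in R 4.3.3 by the robust quasi-likelihood test over all 35 libraries (26 residual degrees of freedom). P-values were two-sided and adjusted over the tested genes by Benjamini-Hochberg, in 15 comparisons of groups and 2 of effects, and genes under 0.05 were called. SE is the size of the log2 fold change divided by the root of F. CPM values are TMM scaled, and log2 CPM used a prior count of 2. The fit was tested on simulated data. No pair of libraries within a group agreed within sampling noise (lowest chi-square per gene 3.92 over 51 pairs). By the data, equally numbered libraries deviated together in every pair (correlation over 0.1) in few comparisons. These were KO against Het naive cells (0.144 to 0.262) and WT memory against naive cells (0.206 to 0.310). The replicate block, which gave each number the same effect in all genotypes and subsets, changed no call of the 6 genes in these. It cannot take account of a mouse shared by subsets within 1 genotype. Equal numbers were also the best match, 4 of 4, in memory against naive cells of each genotype, sought in 1 direction only. The same held for KO naive cells against thymus, Het against WT memory cells and KO against Het naive cells. Of 12 sets of equal genotype and number, 11 were of a single sex. The main fit had no block, so a mouse or batch that equal numbers may share was not taken into account. Named genes are the 6, for each its 2 nearest genes in pattern, and of each other list the 2 highest and 2 lowest called fold changes at a mean log2 CPM of 1 or more in KO against WT. Named genes that are not reported here were left out of the text. The 6 genes and all lists were chosen with earlier results of these data known. Alternatives were RLE scaling, no filter, a stricter filter (4 libraries with a CPM of 1 or more), no robust estimates, a replicate block, a sex covariate, centring on the mean log level, only the compared libraries, DESeq2 1.42.0, KO naive replicates 3 and 4 left out, and each library left out in turn.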

Additional observations from a re-analysis of the deposited data

Results flagged for a closer look

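In 48 tests of a gene in a group of 4 libraries, 3 had 1 library far from the other 3, where chance gives about 1 in 20. Cxcr3 in WT memory cells was highest at 9.59 CPM in replicate 4, with the others at 7.76 to 7.92. Ccr2 in WT naive cells was 0.095 CPM in replicate 3, a single count, with none in the others. Ccr9 in Het memory cells was lowest at 2.88 CPM in replicate 2, with the others at 3.29 to 3.34. The effect of KO against WT on Cxcr3 differed between memory and naive cells in the main fit, by -1.33 on the log2 scale (adjusted p = 0.0496 in edgeR). That call was lost in most fits that left out a library. It was lost in edgeR without robust estimates (adjusted p = 0.0618), with a sex covariate (0.0502) and without KO naive replicates 3 and 4 (0.183) too.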

How the results depend on the processing

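For 72 values of the 6 genes, the main fit was compared with every alternative and with each library left out. Of these, 46 kept their direction and their side of the threshold throughout, and 26 did not in at least 1 fit. Not compared so were the Het against WT values and most differences of effects. Left out too were Ccr4 in KO against WT or Het memory cells and Ccr2 in WT and Het naive cells against thymus. Among the 72 only Ccr2 reversed: between naive cells and thymus in KO it was -0.75 without KO naive replicates 3 and 4. Leaving out these 2 libraries gave 1249 in place of 1879 genes called between KO and WT naive cells, 1 in place of 0 of the 6 genes in naive cells less thymus, and 0 in place of 1 in memory less naive cells. In the last, 2 were called with the replicate block and in DESeq2, and 0 to 2 with a library left out. With only the compared libraries, 3 of the 6 were called in KO against WT and in KO against Het naive cells, and 3 genes of all in Het against WT naive cells, where no filter gave 1. In Het against WT memory cells 1 gene was called, but 2 with RLE scaling, a sex covariate, centring and DESeq2, 3 without a filter and with the replicate block, 0 without robust estimates, and 0 to 1 with a library left out. In Het against WT thymus a library left out gave 0 to 2 genes, and in naive cells against thymus in Het 3 to 5 of the 6. The causes were not tested. The replicate block made Ccr2 pass in KO against Het thymus (adjusted p = 0.0322 in edgeR), as other settings did. Beside this and the other changes given above, it changed no call of the 6 genes. Low counts limit Ccr2 and Cxcr3 in thymus, Ccr2 in naive and Ccr4 in spleen cells.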
